A study of Setaria viridis with 5 samples.

Results

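The bsl1 mutant of the grass Setaria viridis had 116 genes that were expressed in all wild-type libraries of inflorescence primordia and separated upward in the mutant. They were chosen by CPM, the fragments of a gene per 1e+06 fragments of its library, from the 35214 genes of the deposited table. A gene was taken when it had at least 5 CPM in all 3 wild-type libraries and when its lowest bsl1 value was at least 1.5 times its highest wild-type value. Of the 13526 genes with at least 5 CPM in every wild-type library, these 116 are 0.858%. The rule uses the genotype contrast itself, so the higher values in bsl1 are a description of how the genes were chosen, and no test of them is drawn on below.

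The 2 mutant libraries came from homozygous bsl1 (bristleless1) plants. The line was found by NMU chemical mutagenesis, crossed back to the reference line A10.1 and selfed, so it is a single mutant line that can carry other induced changes. The 3 wild-type libraries came from A10.1 plants raised beside the mutants. Each library was a pool of about 10 hand-dissected primordia taken at 15 days after sowing, and polyadenylated RNA was sequenced from it. The labels call the pools biological replicates.

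The Setaria inflorescence is a branched structure in which some branches end as spikelets, the grass flower units, and others end as sterile bristles. The mutant is named for missing bristles. By its title the study concerns brassinosteroids, plant steroid hormones that are perceived by a receptor kinase at the cell surface and act through transcription factors of the BZR1/BES1 family. In Arabidopsis and rice those factors repress genes of brassinosteroid synthesis, so that synthesis genes are under feedback. In Arabidopsis, brassinosteroid activity is kept low in the boundaries between meristem and organs. The identifiers in the files carry no gene names, and the reference gene table contained 0 of them, so the 116 genes cannot be sorted here into synthesis, signalling or meristem genes. The labelled tissue was likewise not checked against marker genes. Identifiers are printed only for the 2 genes with the widest gap, and other genes are given by their rank in the gap.

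The bsl1 libraries held 49162793 and 34069429 fragments, and the wild-type libraries 44739001, 32946287 and 25393087. The wild-type libraries were unevenly spread. Over the 13526 genes the median absolute log2 difference in CPM was 0.080 between the bsl1 libraries, 0.14 between wild-type replicates 2 and 3, and 0.23 and 0.27 between wild-type replicate 1 and those. A principal component with 59.7% of the variance set wild-type replicate 1 (35.7) apart from wild-type replicates 2 and 3 (-12.9 and -31.5), with the bsl1 libraries between them (5.85 and 2.83). Results that rest on wild-type replicate 1 are therefore also given without it. A second component, with 25.3% of the variance, set the genotypes apart. On it the bsl1 libraries lay at 17.8 and 17.1, and wild-type replicates 1, 2 and 3 at -15.6, -11.1 and -8.24.

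The median over the raised genes was similar in the libraries of a genotype. It was 29.5 and 28.3 CPM in the bsl1 libraries and 11.02, 11.1 and 11.3 CPM in wild-type replicates 1, 2 and 3. Relative to each gene's own wild-type mean, the median log2 level was 1.16 and 1.19 in the bsl1 libraries and 0.015, -0.031 and 0.0036 in the wild-type libraries. These medians do not show that the wild-type libraries agreed gene by gene. For the raised genes the median absolute log2 difference was 0.25 and 0.29 between wild-type replicate 1 and replicates 2 and 3, and 0.19 between replicates 2 and 3. The 116 genes took 0.75% and 0.79% of all fragments in bsl1, against 0.348%, 0.344% and 0.335% in wild-type. In RNA from whole pools, more cells of a type and more RNA per cell cannot be told apart.

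**Figure D1:**
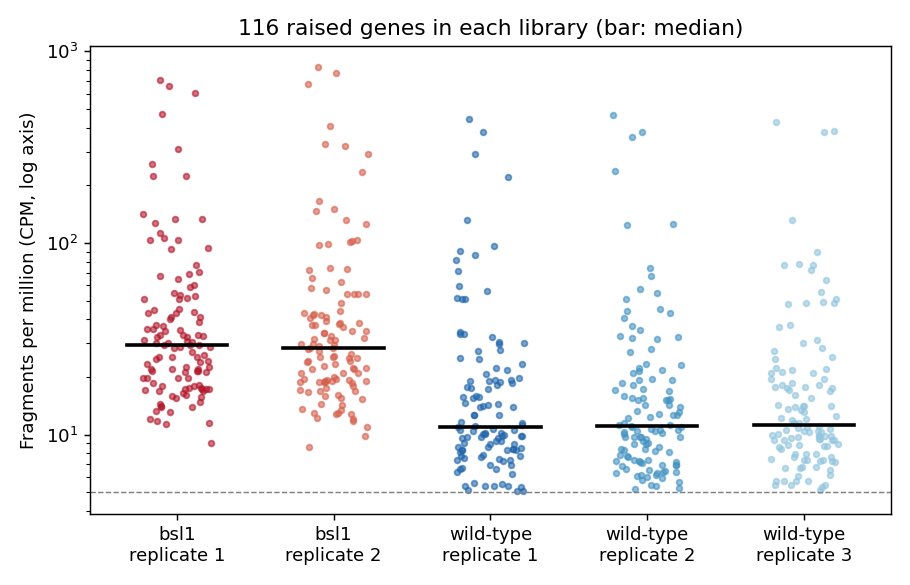
CPM of the 116 raised genes in the 2 bsl1 and 3 wild-type libraries on a log axis; each point is a gene, the black bar is the median and the dashed line is the minimum of 5 CPM. Medians are 29.5 and 28.3 CPM in bsl1 and 11.02 to 11.3 CPM in wild-type.

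Most of the gaps were modest. The ratio of the lowest bsl1 CPM to the highest wild-type CPM lay between 1.5 and 2 for 87 genes (75%) and between 2 and 3 for 25 genes. The other 4 genes had a ratio above 3, and 3 of these were above 5. The ratio of the bsl1 mean to the wild-type mean had a median of 2.27 and ran from 1.61 to 7.79. The gain in fragments was shared unequally, as the 10 genes with the largest difference in mean CPM held 50.3% of the summed difference. At the edge of the rule, 19 of the raised genes had a gap below 1.55, and 25 genes with a gap of 1.45 to 1.5 were left outside. On the level criterion, 18 of the raised genes had a lowest wild-type value under 6 CPM, and 19 genes with the gap were left outside at 4 to 5 CPM.

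Sevir.7G140700, on chromosome 7 by its identifier, had the widest gap. It had 310.9 and 330.2 CPM in the bsl1 libraries, against 56.3, 44.0 and 48.3 CPM in wild-type replicates 1, 2 and 3. On the FPKM scale, which also divides by transcript length, it had 199 and 184 in bsl1 and 37.2, 34.0 and 29.5 in wild-type. Both scales thus put every bsl1 library several times above every wild-type library, and the libraries of a genotype lay close together. The fragments behind these values numbered 15284 and 11251 in bsl1 and 2517, 1450 and 1226 in wild-type. It averaged 320.6 ± 13.7 CPM (SD, n = 2) in bsl1 and 49.5 ± 6.22 CPM (SD, n = 3) in wild-type, and the bsl1 mean was 6.47 times the wild-type mean.

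Sevir.9G171700, on chromosome 9 by its identifier, had 93.7 and 98.8 CPM in bsl1, against 11.2, 15.2 and 18.1 CPM in wild-type. Its FPKM values were 47.5 and 56.8 in bsl1 and 5.92, 9.51 and 10.9 in wild-type. The bsl1 libraries nearly coincided, while the wild-type libraries differed by up to 1.61-fold, with replicate 1 lowest. It averaged 96.24 ± 3.61 CPM (SD, n = 2) in bsl1 and 14.8 ± 3.46 CPM (SD, n = 3) in wild-type. The bsl1 mean was 6.49 times the wild-type mean, a ratio close to that of Sevir.7G140700.

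The gene of rank 3, on chromosome 1, had the largest ratio of means, 7.79, and spread more within both genotypes. It had 257 and 319 CPM in bsl1 and 23.5, 36.7 and 50.8 CPM in wild-type, so that its wild-type libraries differed by 2.16-fold, again with replicate 1 lowest. After these 3 genes the gap dropped. The gene of rank 4, on chromosome 9, had 24.3 and 32.6 CPM in bsl1 and 6.97, 6.37 and 5.32 CPM in wild-type. It lay just above the minimum of the rule in wild-type, and its gap was 3.48.

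Ranks 5 to 7, on chromosomes 2, 7 and 3, had even wild-type levels. The gene of rank 5 had 29.5 and 38.2 CPM in bsl1 and 9.83, 9.01 and 10.5 CPM in wild-type. At rank 6 there were 25.3 and 25.0 CPM in bsl1 and 8.90, 9.68 and 9.45 CPM in wild-type. Rank 7 had 29.4 and 25.0 CPM in bsl1 and 8.52, 9.68 and 9.88 CPM in wild-type. In these 3 genes the wild-type libraries lay within 1.17-fold of each other and the gap was 2.53 to 2.82.

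Ranks 8 to 10 differed in which wild-type library stood out. Rank 8, on chromosome 8, had 41.1 and 34.0 CPM in bsl1 and 7.33, 8.89 and 13.7 CPM in wild-type, with replicate 3 highest. On chromosome 2, rank 9 had 53.2 and 74.3 CPM in bsl1 and 9.01, 22.2 and 21.0 CPM in wild-type, with replicate 1 lowest. Rank 10, on chromosome 3, had 31.1 and 22.9 CPM in bsl1 and 9.70, 6.13 and 5.47 CPM in wild-type, with replicate 1 highest. Over the 10 leading genes, wild-type replicate 1 was mostly at an end of the wild-type values, but not always the same end. It was the lowest wild-type library at ranks 2, 3 and 6 to 9, and the highest at ranks 1, 4 and 10. At rank 5 it lay between the others.

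**Figure D2:**
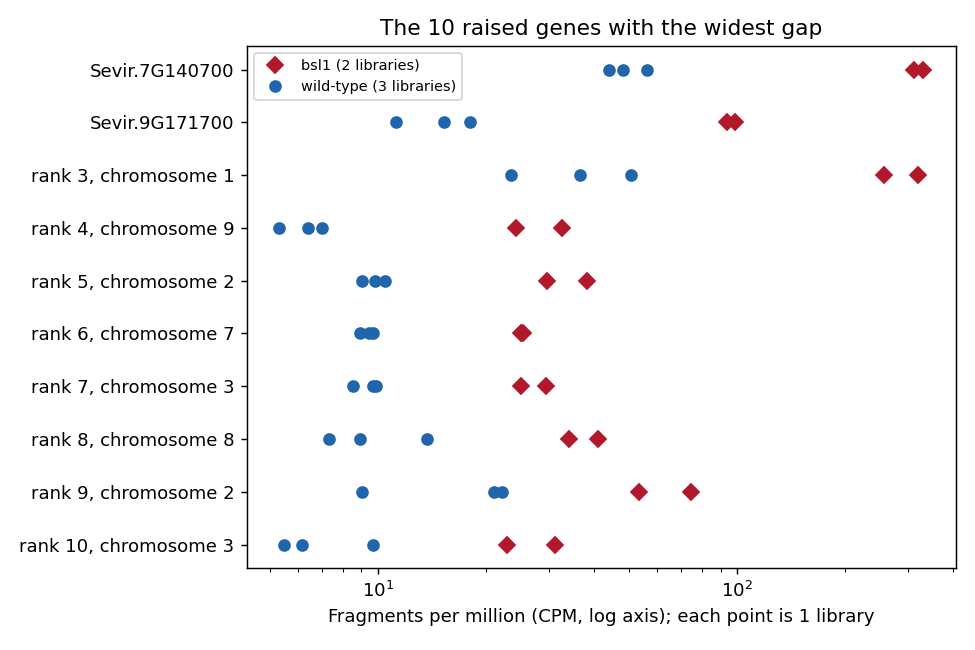
CPM of the 10 raised genes with the widest gap on a log axis; red diamonds are the 2 bsl1 libraries and blue circles the 3 wild-type libraries. The first 3 genes have gaps above 5, and the gap falls to 2.36 at rank 10.

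In CPM the raised genes lay well below most genes that passed the 5 CPM minimum. Their medians were 11.02, 11.1 and 11.3 CPM in wild-type replicates 1, 2 and 3, against 36.1, 36.4 and 35.6 CPM for the 13526. A wild-type mean under 20 CPM was seen in 89 raised genes (76.7%), against 29.1% of the others. Per transcript length, the raised genes also lay toward the lower end of the genes that passed the 5 CPM minimum. Their wild-type mean had a median of 10.6 FPKM (quartiles 6.14 and 19.5), against 19.8 FPKM (quartiles 9.81 and 41.4) for all 13526 genes. Wild-type means under 5 FPKM were seen in 25 raised genes (21.6%), against 9.04% of the 13526. At 20 to 50 FPKM lay 17 raised genes (14.7%), against 29.2% of the 13526, and at 100 FPKM or more lay 4 (3.45%), against 9%. Among the 13526 genes, the rule took 25 of the 1223 under 5 FPKM. It took 17 of the 3951 at 20 to 50 FPKM and 4 of the 1217 at 100 FPKM or more. The share taken was thus larger under 5 FPKM. Within the raised genes the median gap varied little with this level, but the rule gives every gap the same minimum. These medians therefore cannot show whether the gap depends on level. The median gap was 1.72 for the 25 genes under 5 FPKM, 1.74 at 5 to 10 FPKM, 1.75 at 10 to 20 FPKM and 1.79 at 20 to 50 FPKM, and it was 1.58 for the 4 genes of 100 FPKM or more.

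**Figure D3:**
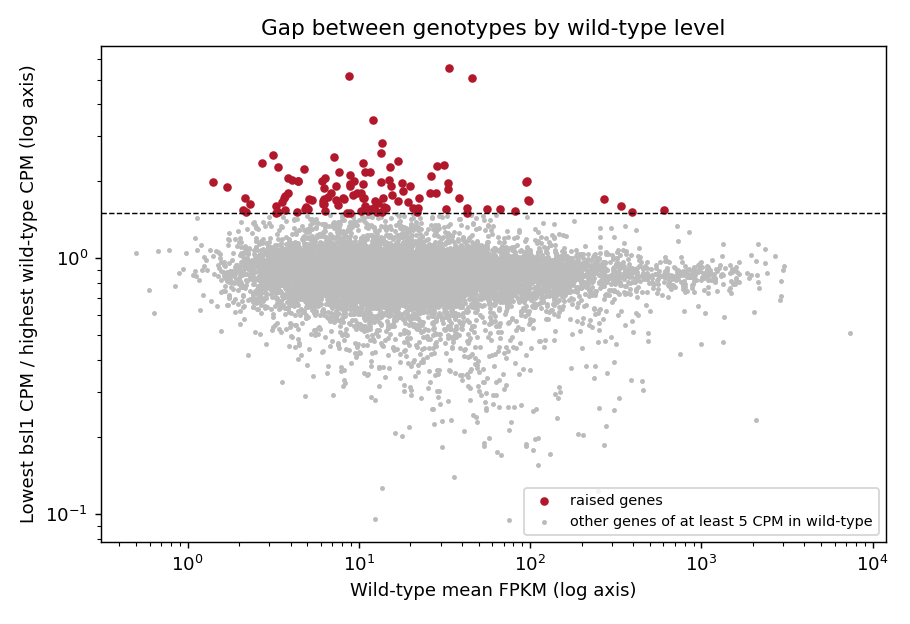
Ratio of the lowest bsl1 CPM to the highest wild-type CPM against the wild-type mean FPKM, both on log axes, for the 13526 genes of at least 5 CPM in every wild-type library. The 116 raised genes (red) lie above the dashed line at 1.5 and have a median of 10.6 FPKM, against 19.8 FPKM for all.

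The 4 raised genes of 100 FPKM or more in wild-type had gaps between 1.5 and 2. The highest, of rank 99 on chromosome 3, had 661 and 768 CPM in bsl1, against 291, 377 and 429 CPM in wild-type. Next came rank 111, on chromosome 7, with 707 and 826 CPM in bsl1 and 443, 466 and 382 CPM in wild-type. Rank 83, on chromosome 8, had 608 and 673 CPM in bsl1 and 378, 357 and 378 CPM in wild-type. In this last gene the wild-type libraries lay within 1.06-fold of each other. Also on chromosome 7, rank 66 had 471 and 405 CPM in bsl1 and 220, 238 and 89.4 CPM in wild-type, with replicate 3 well below the rest.

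The raised genes had a wider spread between libraries of the same genotype than the 13526 genes as a whole. The rule reads these same libraries, so the values are given without a test. The median absolute log2 difference in CPM between the bsl1 libraries was 0.19, against 0.080 over the 13526 genes. Among genes with a wild-type mean under 20 CPM it was 0.19 for 89 raised genes and 0.11 for 3903 others, and at 20 CPM or more it was 0.17 for 27 raised genes and 0.071 for 9507 others. The wider spread was thus seen on both sides of 20 CPM. The bsl1 libraries were over 1.5-fold apart for 5 raised genes (4.31%, against 0.599% of the 13526), and replicate 1 was the higher library in all 5. An example is the gene of rank 54 on chromosome 9, with 21.6 and 10.9 CPM in bsl1 and 6.26, 5.28 and 5.16 CPM in wild-type. Across all 116 genes, bsl1 replicate 2 was the higher library for 62 (53.4%, against 58.3% of the 13526) and replicate 1 for 54.

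In wild-type the highest of the 3 libraries exceeded the lowest by a median of 1.34-fold for the raised genes and 1.26-fold for the 13526. It did so by more than 1.5-fold for 36 raised genes (31.0%) and for 22.6% of the 13526. Wild-type replicate 1 was the highest wild-type library for 50 of the 116 genes (43.1%, against 36.4% of the 13526). Replicate 3 was highest for 42 (36.2%, against 36.2%) and replicate 2 for 24 (20.7%, against 27.4%). The median log2 difference of wild-type replicate 1 from the mean of the other wild-type libraries was 0.02 for the raised genes and -0.05 for the 13526. As the rule compares bsl1 with the highest wild-type library, it removes genes that are high in any 1 of them. Without wild-type replicate 1 the rule would take 356 genes, among them all 116.

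The deposited FPKM values separate the genotypes less fully than the fragments do. The bsl1 mean exceeded the wild-type mean in FPKM for all 116 genes, with a median ratio of 1.91. It did so for 3565 of the 13526 genes, whose median ratio over all 13526 was 0.923. The rule in CPM makes a higher FPKM mean likely for the raised genes. Both bsl1 libraries were above all wild-type libraries in FPKM for 92 of the 116, where 2.42% of the 13526 genes were so separated. FPKM and CPM come from the same fragments, so this count is not separate evidence. The gap in FPKM was at least 1.5 for 36 raised genes, and 0.296% of the 13526 reached it. Applied to FPKM, with a minimum of 5 FPKM, the rule took 26 genes, 21 of them among the 116. All 4 genes with a CPM gap above 3 were separated in FPKM, as were 23 of the 25 genes with a gap of 2 to 3 and 65 of the 87 genes with a gap under 2.

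Of the 24 raised genes that overlapped in FPKM, 23 had their highest wild-type FPKM in replicate 2. That library was highest in FPKM for 86 of the 116 raised genes and for 48.4% of the 13526, though in CPM it was highest for 24 of the 116. Without wild-type replicate 2, 111 of the 116 were separated in FPKM, where the background was 9.9%. Without bsl1 replicate 2 it was also 111, with a background of 4.27%. The count was 93 without bsl1 replicate 1 (background 17.2%), 92 without wild-type replicate 1 (4.38%) and 93 without wild-type replicate 3 (4.18%). The transcript length implied by fragments and FPKM was shorter in wild-type replicate 2 than elsewhere. Its median over the raised genes was 1431 and 1673 bases in the bsl1 libraries and 1407, 964 and 1727 bases in wild-type replicates 1, 2 and 3. Over the 13526 genes the medians were 2172 and 1995 bases in bsl1 and 2077, 1694 and 1975 bases in wild-type. The same library was thus shortest over all these genes. Any scaling of FPKM between libraries would enter the implied length. Across the 5 libraries the longest implied length exceeded the shortest by a median of 2.45-fold for the 24 overlapping genes, 1.59-fold for the other raised genes and 1.46-fold for the 13526.

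The gene of rank 111 had the smallest gap in FPKM, 0.506. Its FPKM was 641 and 347 in bsl1 and 399, 686 and 90.8 in wild-type, so that wild-type replicate 2 was above both bsl1 libraries while its CPM was below both. Rank 99 had 900.2 and 786 FPKM in bsl1 and 396, 952 and 475 FPKM in wild-type, with the same library highest. In both genes the genotypes were separated in CPM and overlapped in FPKM.

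**Figure D4:**
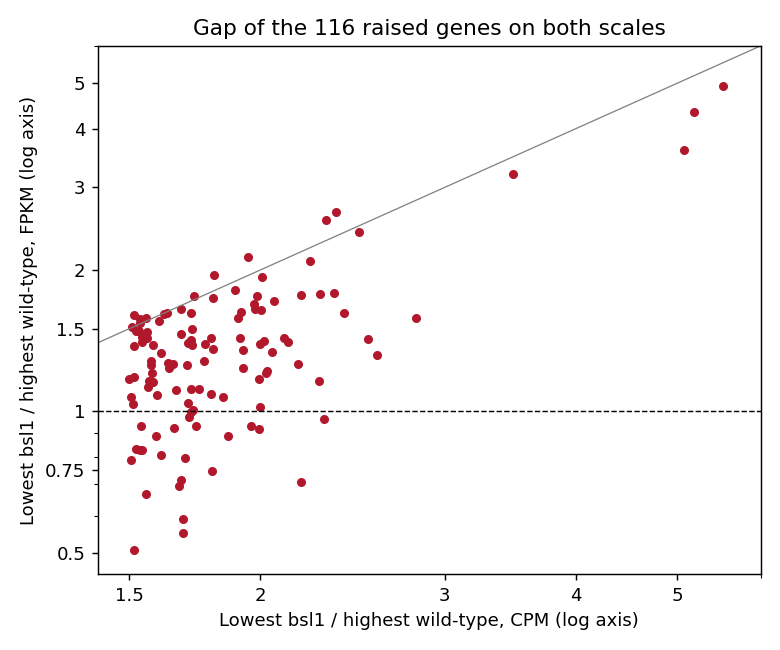
Ratio of the lowest bsl1 value to the highest wild-type value in CPM (horizontal) and in FPKM (vertical) for the 116 raised genes, both on log axes; the grey line marks equal ratios and the dashed line a ratio of 1 in FPKM. Points below the dashed line are the 24 genes that overlap in FPKM.

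Implied transcripts were shorter in the raised genes than in the 13526 genes. The median over genes, taking each gene's median over the 5 libraries, was 1406 bases (quartiles 905 and 2001) for the raised genes and 1959 bases (quartiles 1299 and 2930) for the 13526. The difference was seen on both sides of 20 CPM, with 1430 bases for raised genes against 1719 for others below it, and 1217 bases for raised genes against 2090 for others above it. No test was run on these lengths, which rest on FPKM. Estimated counts that were not whole numbers, exactly and in any library, occurred in 1 raised gene (0.862%) and in 1.67% of the 13526.

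The raised genes lay on all 9 chromosomes and on none of the unplaced scaffolds, which held 27 of the 13526 genes. Chromosome 5 held the most, 20, which are 1.01% of its genes of at least 5 CPM. Chromosome 3 held 18 (1.06%), chromosome 9 held 17 (0.657%), chromosome 2 held 16 (0.910%) and chromosome 7 held 13 (1.04%). Chromosome 1 held 11 (0.661%), chromosome 4 held 8 (0.729%), chromosome 8 held 7 (1.23%) and chromosome 6 held 6 (0.667%). The shares stayed within 0.657% to 1.23%, around the 0.858% of all genes, so no chromosome was without raised genes and none held a large part of them.

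**Figure D5:**
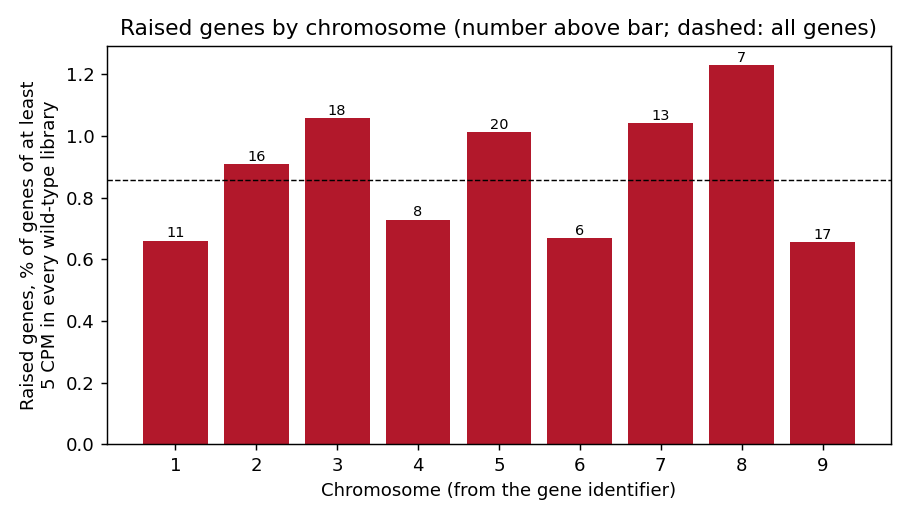
Raised genes as a percentage of the genes of at least 5 CPM in every wild-type library, by chromosome; numbers above the bars are counts of raised genes and the dashed line is the 0.858% of all genes. Shares run from 0.657% on chromosome 9 to 1.23% on chromosome 8.

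A few raised genes were close neighbours in the order of the identifiers. In 4 pairs the members were at most 5 genes apart. How many such pairs other sets of genes would give was not counted, so the pairs are only described. On chromosome 1, 2 steps apart, 1 gene had 44.8 and 48.8 CPM in bsl1 and 25.2, 28.1 and 28.4 CPM in wild-type. Its neighbour had 54.9 and 37.7 CPM in bsl1 and 15.6, 16.9 and 13.4 CPM in wild-type. The bsl1 replicates were ordered in opposite ways in this pair. The pair on chromosome 8, 4 steps apart, was made of the genes of ranks 83 and 71, both among the 5 raised genes with the highest wild-type FPKM. Rank 71 had 222 and 293 CPM in bsl1 and 96.1, 125 and 132 CPM in wild-type.

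Both other pairs were on chromosome 5, each 3 steps apart. In the first, of ranks 84 and 43, 1 gene had 11.8 and 13.0 CPM in bsl1 and 5.34, 5.83 and 7.36 CPM in wild-type, and the other had 33.3 and 37.3 CPM in bsl1 and 10.0, 9.53 and 17.6 CPM in wild-type. Wild-type replicate 3 was the highest wild-type library in both genes. In the second, of ranks 103 and 23, 1 gene had 134 and 132 CPM in bsl1 and 86.2, 40.6 and 48.4 CPM in wild-type, and the other had 43.3 and 53.9 CPM in bsl1 and 17.8, 19.2 and 21.1 CPM in wild-type. Here the neighbours were unlike in wild-type, with replicate 1 highest in 1 gene and lowest in the other.

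The genes beside the raised ones were also examined. There were 224 genes of at least 5 CPM next to a raised gene in identifier order that were not raised genes themselves. Their median log2 ratio of means was 0.04, against -0.00017 for the genes neither raised nor next to a raised gene. All bsl1 libraries were above all wild-type libraries for 46 of the 224 (20.5%). The share was 14.5% over the 13526 genes and 13.7% over the genes neither raised nor next to a raised gene. Among genes not raised it differed with level, at 21.3% under 20 CPM and 10.7% at 20 CPM or more. The 224 genes were not compared by level.

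Across all genes, edgeR's quasi-likelihood test, with Benjamini-Hochberg adjustment over 20498 genes, called 2 genes higher in bsl1 (0.00976%), and 1 of these was among the 116. This was Sevir.7G140700, with a log2 fold of 2.64 (standard error 0.132) and an edgeR adjusted p of 0.019. The standard errors given here were derived from the log2 fold and the F statistic of the test. Sevir.9G171700 had the same log2 fold of 2.64 with a standard error of 0.208 and missed the threshold at an edgeR adjusted p of 0.0574. The rule and the test use the same contrast, so these calls add nothing to the choice of genes. All 116 had an unadjusted p under 0.05, as did 7.61% of tested genes in the same direction. The median edgeR log2 fold was 1.12 over the 116 genes and -0.01 over all tested genes. The largest edgeR adjusted p among the 116 was 0.434.

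The number called depended on the tool and on wild-type replicate 1. DESeq2 called 111 of the 116, with 1.88% of tested genes called higher. Without a filter on low counts edgeR called 19, with a background of 0.175%, and with median-ratio factors it called 1, as before. On FPKM, limma called 1 of the 116 with a pseudocount of 1 (background 0.0341%) and 0 with 0.1 (background 0.00569%), where 75 had an unadjusted p under 0.05 (background 1.98%). edgeR without wild-type replicate 1 called 101, with 3.78% of tested genes called higher, and the adjusted p of Sevir.7G140700 was then 0.0028 and that of Sevir.9G171700 0.0041. Leaving out any of the other 4 libraries gave 0 calls in edgeR over all genes. At an unadjusted p under 0.05 were then 109 of the 116 without bsl1 replicate 1 (background 3.16%), 111 without bsl1 replicate 2 (4.59%), 114 without wild-type replicate 2 (5.88%) and 114 without wild-type replicate 3 (7.33%). A fit with a replicate block also gave 0 calls, with all 116 at an unadjusted p under 0.05 (background 7.28%).

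The mirrored rule found few genes. Of 14445 genes with at least 5 CPM in both bsl1 libraries, 3 (0.0208%) had a lowest wild-type value at least 1.5 times the highest bsl1 value. Their bsl1 means were 0.282 to 0.479 times the wild-type means. Without a minimum gap the sides were less uneven. All bsl1 libraries were above all wild-type libraries for 14.5% of the 13526 genes and below them for 7.22%. These counts use CPM without TMM factors, which were 1.018 and 1.031 in bsl1 and 0.981 to 0.991 in wild-type. Such factors would lower the bsl1 values relative to wild-type. Without wild-type replicate 1, edgeR called 766 genes higher and 254 lower in bsl1 at an adjusted p under 0.05.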

How the data were processed

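RNA was measured in 2 bsl1 and 3 wild-type pools of primordia. The authors deposited 1 table holding, per the file headers, raw fragments (here estimated counts) and FPKM, which scales fragments by transcript length and library size, for each gene and library. TopHat2 2.1.0 and Cuffdiff 2.2.1 are named in the submitters' processing notes. For the build, strandedness and scaling of FPKM, the setting was not given in the sources used here. From 1% to 1.15% of the counts above 0 were not whole in a library.

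CPM was computed from the fragments and the column totals. Estimated counts were rounded and fitted with edgeR 4.0.16 in R 4.3.3 (quasi-likelihood test, TMM factors of 0.981 to 1.031, filterByExpr at a minimum count of 10, adjusted p threshold 0.05). Alternatives used DESeq2 1.42.0 and limma 3.58.1 on log2(FPKM + 1) or log2(FPKM + 0.1) where the mean FPKM reached 1. The fits were tested on simulated data with the same dispersion for every gene and no library set apart, unlike these data. That test cannot say which of the differing numbers of calls is right. Implied length is fragments divided by FPKM and by library size, in bases. Each raised gene had at least 131 fragments in every library. The chromosome is read from the identifier. Genes named by identifier are the 2 with the widest gap. The genes, the rule and the analyses were chosen with earlier results of these data known. Lists of pathway and marker genes could not be applied, as no identifier matched a name.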

Additional observations from a re-analysis of the deposited data

How the results depend on the processing

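The number of raised genes followed the limits of the rule. It was 322 with a minimum of 1 CPM, 942 with no minimum, 54 with 10 CPM, 29 with a 2-fold gap, 334 with a smaller gap, midway between equality and the rule's 1.5-fold, and 26 with the same limits on FPKM, 21 of them among the 116. TMM scaling gave 94 and median-ratio scaling 88, of which 93 and 87 were among the 116. Leaving out 1 library can only add genes, as fewer libraries have to be separated, and it gave 167 to 356. The count was 356 without wild-type replicate 1, against 171 and 176 without wild-type replicates 2 and 3. Why it was highest there was not tested. Of the 116, edgeR called 1, and this became 19 with no filter on low counts, 111 in DESeq2, 0 in limma on log2(FPKM + 0.1) and 0 with the replicate block, and 0 to 101 with 1 library left out, the highest again without wild-type replicate 1. The cause was not tested. The median log2 fold of 1.12 was 0.91 in limma on log2(FPKM + 1), 0.97 in limma on log2(FPKM + 0.1) and 1.06 to 1.13 with 1 library left out. Sevir.7G140700 kept its direction in 11 of 11 alternatives (log2 fold 2.48 to 2.74) and its call in 5, and Sevir.9G171700 kept its direction in 11 (2.47 to 2.83) and passed in 3. Both genes were chosen for the widest gap between these same libraries. Their direction in the alternatives was therefore set by that choice and is no separate support. With the replicate block, both had an edgeR adjusted p of 0.0835. No label says that replicate numbers mark a shared batch. Over the 13526 genes, deviations from the group mean correlated at r = 0.152 between the libraries numbered 1 and 0.0537 between those numbered 2. The deviations of the 2 bsl1 libraries mirror each other, so these values are not independent, and a shared batch was not tested. Leaving out 1 library for the separation in FPKM was chosen after the data were seen and gave 92 to 111 of the 116, where 4.18% to 17.2% of the 13526 genes were so separated. With 1 bsl1 library left, its spread is taken to equal that of wild-type.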
